A study of Mus musculus with 49 samples.

Results

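The GIMAP genes (GTPases of the immunity-associated protein family) were followed in mouse CD8+ T cells through 48 hr of culture with interleukin-2 (IL-2), in cells with normal STAT5 proteins and in cells whose STAT5A or STAT5B could not be phosphorylated on its activating tyrosine. The 8 genes *Gimap1*, *Gimap3*, *Gimap4*, *Gimap5*, *Gimap6*, *Gimap7*, *Gimap8*, and *Gimap9* were taken by symbol from the 23992 gene symbols measured, with the longest RefSeq transcript standing for each gene, and all 8 passed the filter on low counts. GIMAP proteins are small GTP-binding proteins of lymphocytes that sit on the membranes of organelles such as lysosomes, mitochondria, the endoplasmic reticulum, and the Golgi, and their genes lie side by side in a cluster. They are known for keeping resting T cells alive: loss of GIMAP5 or GIMAP1 leaves mice short of peripheral lymphocytes. IL-2 signals in T cells largely through STAT5A and STAT5B, which bind DNA as dimers once a tyrosine near their end is phosphorylated.

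CD8+ T cells were isolated with a magnetic kit from the spleens of C57BL/6J mice, and RNA-seq was done on cells kept without IL-2 (0 hr) and on cells cultured with recombinant human IL-2 at 500 IU/ml for 4, 24, or 48 hr. Each of 2 mouse lines gave wild type (WT) and knock-in (KI) cells, which makes 16 groups of line, genotype, and time with 3 libraries each, 48 in all. The KI alleles were made with CRISPR/Cas9 and exchange the activating tyrosine for phenylalanine, of STAT5A in one line (*Stat5a*) and of STAT5B in the other (*Stat5b*), and they carry further silent base changes. KI mice were homozygous, WT mice were littermates of the same line, mice of both sexes aged 8 to 24 weeks were used, and the founders, made in B6D2F1 zygotes, had been backcrossed for 6 generations. The other STAT5 gene is intact in each KI line, and KI cells carried the change from the germ line and not only from the start of culture. Whether the 3 libraries of a group came from separate mice, from pooled mice, or from 1 culture is not given in the sources used here, so p-values measure the spread between libraries. In RNA from bulk cells, fewer cells of a type and less RNA per cell cannot be told apart. Every later group was cultured with IL-2 and none without it, so effects of IL-2 and of time in culture cannot be told apart. The IL-2 response below means the change from 0 hr over that culture.

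The 8 genes lie together on chromosome 6 in the GRCm38 (mm10) assembly, from the start of *Gimap8* at 48647186 to the end of *Gimap3* at 48770851. In order they are *Gimap8* (48647186 to 48660875), *Gimap9* (48676121 to 48679116), *Gimap4* (48684578 to 48692062), *Gimap6* (48701583 to 48708244), *Gimap7* (48718621 to 48724636), *Gimap1* (48739047 to 48743795), *Gimap5* (48746197 to 48754200), and *Gimap3* (48764464 to 48770851). *Gimap6* and *Gimap3* are read from the minus strand and the other 6 from the plus strand. STAT5 dimers recognise the palindrome TTCNNNGAA, where N is any base, which reads the same on both strands. It was sought in the window from 250 bases before to 50 bases after each start site in RefSeq's annotation of GRCm38.p6, and 4 of the 9 GIMAP windows held it (*Gimap8* has 2 start sites), against 8.3% of the 32851 windows of this length in the table. The 4 windows with a match are shown because they are the places near a GIMAP start where this STAT5 palindrome can be read, each printed 5′ to 3′ on the strand of its gene with the palindrome in capitals. They are chr6:48770802-48771101 for *Gimap3* on the minus strand, chr6:48647111-48647410 for the downstream start of *Gimap8* on the plus strand, chr6:48708195-48708494 for *Gimap6* on the minus strand, and chr6:48718371-48718670 for *Gimap7* on the plus strand.
Gimap3: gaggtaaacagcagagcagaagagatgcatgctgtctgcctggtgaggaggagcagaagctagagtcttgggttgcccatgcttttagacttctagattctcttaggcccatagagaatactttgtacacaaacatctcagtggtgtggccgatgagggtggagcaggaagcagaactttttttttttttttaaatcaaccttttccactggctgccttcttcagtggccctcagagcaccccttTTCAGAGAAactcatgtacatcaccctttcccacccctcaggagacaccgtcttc
Gimap8: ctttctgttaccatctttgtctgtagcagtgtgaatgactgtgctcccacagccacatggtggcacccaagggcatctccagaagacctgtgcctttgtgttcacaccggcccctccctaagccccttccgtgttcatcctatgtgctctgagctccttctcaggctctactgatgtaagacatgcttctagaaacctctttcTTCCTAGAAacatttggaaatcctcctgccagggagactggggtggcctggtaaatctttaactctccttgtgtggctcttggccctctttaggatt
Gimap6: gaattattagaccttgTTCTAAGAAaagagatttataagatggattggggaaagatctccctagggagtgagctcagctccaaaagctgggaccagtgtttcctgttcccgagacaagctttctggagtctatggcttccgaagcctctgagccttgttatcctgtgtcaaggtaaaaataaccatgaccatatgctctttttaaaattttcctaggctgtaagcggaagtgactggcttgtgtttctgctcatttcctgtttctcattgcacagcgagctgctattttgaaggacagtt
Gimap7: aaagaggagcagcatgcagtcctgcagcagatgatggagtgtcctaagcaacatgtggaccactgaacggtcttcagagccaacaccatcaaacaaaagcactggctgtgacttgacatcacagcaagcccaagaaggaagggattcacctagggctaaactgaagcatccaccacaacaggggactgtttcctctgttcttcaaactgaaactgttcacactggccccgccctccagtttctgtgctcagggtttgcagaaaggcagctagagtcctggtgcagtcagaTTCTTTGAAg
The palindrome TTCAGAGAA begins 5 bases before the start of *Gimap3*, TTCCTAGAA 47 bases before the downstream start of *Gimap8*, TTCTAAGAA 234 bases before the start of *Gimap6*, and TTCTTTGAA 40 bases after the start of *Gimap7*. The windows of *Gimap9*, *Gimap4*, *Gimap1*, *Gimap5*, and the upstream start of *Gimap8* do not hold these letters. A match describes the sequence, and binding of STAT5 was not analysed here.

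Of the 48 libraries, 47 were used. The third *Stat5a* KI library of 4 hr was left out because it held 1028515 reads on the longest transcripts, which were 5.675% of its mapped reads, and its 8 GIMAP genes had 630 reads and a summed level of 16.8 RPKM (reads per kilobase of transcript, scaled to mapped reads, the authors' deposited values). The 47 libraries held 17369112 to 60200653 reads on the longest transcripts (median 41410666), of which the GIMAP genes took 0.166% to 0.471% (median 0.262%), and their summed level was 630 to 1772 RPKM. A second library stands apart among those used: the 4 hr WT library of the *Stat5a* line numbered replicate 2 held the 17369112 reads, 44.86% of its mapped reads against a median of 75.28% over the libraries used. Its *Gimap5* level was 22.5 RPKM beside 55.9 and 70.5 RPKM in the other 2 WT libraries of that group, whereas its *Gimap4* level of 402 RPKM lay between their 348 and 422 RPKM. Tests of the members that use this group at 4 hr are therefore followed by their values without it where they bear on a call. Levels and shares, including the shares of all genes, keep this library, so counts without it have no matching share of all genes. It also enters every other test through the pooled spread: without it the SE of *Gimap4* in *Stat5b* KI against WT cells at 4 hr went from 0.13 to 0.09 and that of *Gimap5* from 0.12 to 0.08. The KI alleles change 1 residue and delete nothing, and the targeted genes were transcribed in every group. *Stat5a* mRNA was at 9.96 to 31.1 RPKM and *Stat5b* mRNA at 14.5 to 52.5 RPKM, both lowest in that replicate 2. By edgeR the log2 fold change of *Stat5b* mRNA in *Stat5b* KI against WT cells was 0.37 at 24 hr (adjusted p = 0.00583). At 48 hr it was 0.47 (adjusted p = 5.33e-04), and 0.33 in the *Stat5a* line (adjusted p = 0.0156). *Stat5a* mRNA stood at 0.34 in *Stat5b* KI against WT cells at 4 hr (adjusted p = 8.18e-04). The other KI and WT comparisons of these genes had an adjusted p above 0.05. The cause was not tested, and these levels do not check the genotype. As a check of the cell type, *Cd8b1*, a chain of the CD8 co-receptor, had group means that ran from 211 to 539 RPKM, against 0.7 to 18.6 RPKM for *Cd4*.

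**Figure D1:**
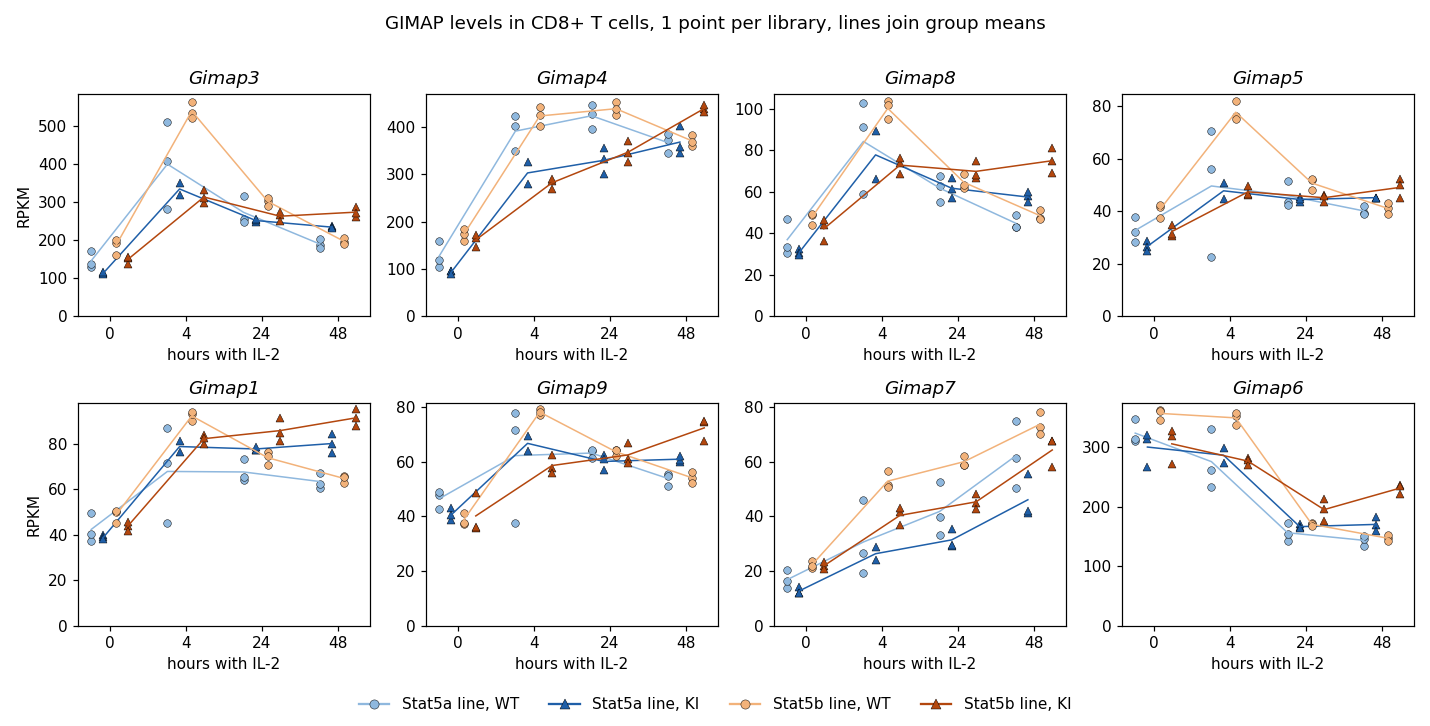
Level (RPKM, linear axis from 0) of each GIMAP gene in each library against hours with IL-2, with the 4 times drawn at equal spacing, circles for WT, triangles for KI, and lines through group means. *Gimap3*, *Gimap8*, and *Gimap5* of *Stat5b* line WT cells peak at 4 hr and return towards their 0 hr level, *Gimap7* of WT cells has its highest group means at 48 hr, and *Gimap6* drops after 4 hr.

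*Gimap6*, whose protein binds an ATG8 protein of autophagy, was the most abundant member before IL-2, and *Gimap3* and then *Gimap4* took its place afterwards. Levels between genes are compared on the RPKM scale, which accounts for transcript length. In *Stat5b* line WT cells at 0 hr, *Gimap6* stood at 346, 363, and 361 RPKM. *Gimap3*, at 162 to 201 RPKM, and *Gimap4*, at 159 to 185 RPKM, followed with ranges that overlapped each other and lay below *Gimap6*. *Gimap1* (45.03 to 50.3 RPKM) and *Gimap8* (43.9 to 49.5 RPKM) overlapped, as did *Gimap9* (37.1 to 41.1 RPKM) and *Gimap5* (37.5 to 42.3 RPKM) below them. *Gimap7* was lowest, at 20.9 to 23.6 RPKM, clear of all others. The order changed over culture with IL-2: of the summed GIMAP level in *Stat5b* line WT cells, *Gimap6* made up 39.1% at 0 hr, 20.4% at 4 hr, 13.9% at 24 hr, and 14.7% at 48 hr. *Gimap3* was the most abundant at 4 hr with 31.5%, and *Gimap4* at 24 and 48 hr with 35.8% and 37.1%. *Stat5a* line WT cells had the same leading gene at each time, with *Gimap6* at 41.9% at 0 hr, *Gimap3* at 29.4% at 4 hr, and *Gimap4* at 37.3% and 38.0% later. At 4 hr *Gimap4* was close behind at 28.7%, with overlapping ranges (282 to 511 RPKM for *Gimap3* and 348 to 422 RPKM for *Gimap4*), and it led in replicate 2. *Gimap7* rose from 2.4% of the sum to 7.4% in *Stat5b* line WT cells between 0 and 48 hr. Over the 16 groups, group means spanned 5.79-fold for *Gimap7*, 4.73-fold for *Gimap3*, and 4.67-fold for *Gimap4*, and the narrowest span was 2.02-fold, for *Gimap9*. The summed level of the family in *Stat5b* line WT cells was 911 ± 46.0 RPKM (SD, n = 3) at 0 hr, 1713 ± 51.6 RPKM at 4 hr, 1223 ± 19.0 RPKM at 24 hr, and 996.5 ± 34.4 RPKM at 48 hr. In RPKM the 48 hr range of 974 to 1036 lay just above the 0 hr range of 860 to 949. The sum was not tested on the scale of the fold changes below.

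The first comparison asks how each member changes in WT cells over culture with IL-2. Within 4 hr *Gimap3* and *Gimap4* rose more than 2-fold in both lines, *Gimap6* fell more than 2-fold by 24 hr, and *Gimap7* was more than 2-fold above 0 hr at 48 hr. Fold changes come from edgeR's quasi-likelihood test on the deposited counts of 15566 genes, with Benjamini-Hochberg adjustment over all of them. They use counts after TMM scaling between libraries, whereas RPKM is scaled to mapped reads, so these scales can differ over time. From 0 to 48 hr in *Stat5b* line WT cells mean *Gimap5* went from 40.5 to 41.1 RPKM, with a log2 fold change of −0.15 ± 0.12. A gene passed the test when its adjusted p was 0.05 or less, and for a 2-fold call its level also had to differ by 2-fold or more. At 4 hr, 3 of 8 members were called in *Stat5a* line WT cells, where 21.4% of all genes tested were called, and 3 of 8 in *Stat5b* line WT cells, where 15.7% were. At 24 hr the counts were 3 of 8 in each line, beside 22.9% and 22.5% of all genes, and at 48 hr 3 of 8 and 2 of 8, beside 36.6% and 35.3%. Without the fold threshold 37 of the 48 values of the 8 members passed the test, beside 61.4% of the values of all genes. Of the 37, 33 were higher and 4 lower, the 4 being *Gimap6* at 24 and 48 hr in both lines. The comparisons at the 3 times use the same 0 hr libraries, so their values are not independent of each other.

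*Gimap3*, which encodes a GTPase of mitochondrial and endoplasmic reticulum membranes and is the nearest relative of *Gimap5*, had the highest group mean of all members. This was 541 RPKM, in *Stat5b* line WT cells at 4 hr. In *Stat5a* line WT cells and in KI cells of both lines the highest group mean was that of *Gimap4*. In *Stat5b* line WT cells *Gimap3* was at 162, 193, and 201 RPKM at 0 hr and at 536, 564, and 522 RPKM at 4 hr. At 24 hr it was at 305, 312, and 290 RPKM, and at 48 hr at 195, 207, and 191 RPKM. The 4 hr libraries lay far above all others, the 24 hr libraries stood between, and the 48 hr libraries overlapped the range of 0 hr. The log2 fold change against 0 hr was 1.37 ± 0.09 (SE) at 4 hr (adjusted p = 1.82e-15), 0.52 ± 0.09 at 24 hr (adjusted p = 3.36e-06), and −0.08 ± 0.09 at 48 hr, which did not pass. *Stat5a* line WT cells went from 130.05, 138.1, and 171.4 RPKM to 409, 282, and 511 RPKM at 4 hr, with no overlap even for the library that stands apart. Their log2 fold change at 4 hr was 1.47 ± 0.09 (adjusted p = 2.26e-16), and 1.475 without replicate 2. At 48 hr they were at 181 to 204 RPKM, above the range of 0 hr, with a log2 fold change of 0.17 ± 0.09 that did not pass (adjusted p = 0.0729) but did so in 28 of the 47 fits that left out 1 library (0.096 to 0.366 over all 47).

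*Gimap4*, a GTPase tied to the pace of T cell death and to cytokine secretion, rose as early but stayed high. In *Stat5b* line WT cells it was at 159, 173, and 185 RPKM at 0 hr and at 402, 441, and 425 RPKM at 4 hr. It was at 452, 424, and 438 RPKM at 24 hr and at 360, 383, and 367 RPKM at 48 hr. All IL-2 libraries lay above all 0 hr libraries, and the 4 and 24 hr ranges overlapped. The log2 fold changes were 1.12 ± 0.13 at 4 hr (adjusted p = 2.96e-09), 1.16 ± 0.13 at 24 hr (adjusted p = 7.85e-10), and 0.93 ± 0.13 at 48 hr, the last under 2-fold but called in 27 of the 47 fits that left out 1 library. In the *Stat5a* line they were 1.72 ± 0.13, 1.56 ± 0.13, and 1.32 ± 0.13, all called, and without replicate 2 at 4 hr the first was 1.42 ± 0.10 (adjusted p = 1.9e-14).

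*Gimap7*, whose protein hydrolyses GTP as a dimer, was above its 0 hr level at all 3 times in both lines. In *Stat5b* line WT cells it was at 20.9, 23.6, and 21.9 RPKM at 0 hr and at 51.5, 56.5, and 50.7 RPKM at 4 hr. It reached 58.9, 62.2, and 58.9 RPKM at 24 hr and 72.7, 78.3, and 70.3 RPKM at 48 hr. The ranges of the 4 times did not overlap, and each time lay above the one before, although neither the step from 4 to 24 hr (0.17 ± 0.15, adjusted p = 0.372) nor that from 24 to 48 hr passed the test in this line. The log2 fold change at 48 hr was 1.56 ± 0.15 (adjusted p = 1.89e-11) in this line and 1.68 ± 0.15 (adjusted p = 3.80e-12) in the *Stat5a* line, where levels went from 13.8, 16.3, and 20.4 RPKM to 50.4, 61.3, and 74.8 RPKM. In the *Stat5a* line the spread was wide at 4 hr, at 26.7, 19.2, and 46.0 RPKM, and the change of 0.86 ± 0.15 passed the test without a 2-fold call (0.93 ± 0.16 without replicate 2, and 1.07 and 1.09, both called, without WT replicate 3 at 0 hr or replicate 1 at 4 hr). The 2-fold call at 24 hr in that line (log2 fold change 1.14) was lost without WT replicate 3 at 24 hr (0.97, adjusted p = 1.51e-06).

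*Gimap6* was the exception, in that it did not rise at any time in either line. In *Stat5b* line WT cells it was at 353, 357, and 337 RPKM at 4 hr, overlapping the 346 to 363 RPKM of 0 hr. At 24 hr it had dropped to 172, 171, and 168 RPKM, and at 48 hr to 147.1, 151.4, and 141.6 RPKM. The late libraries lay far below the early ones, with no overlap, and those of 48 hr below those of 24 hr. The log2 fold changes against 0 hr were −0.20 ± 0.09 at 4 hr (adjusted p = 0.0571, and past the threshold in 3 of the 47 fits that left out 1 library, with 0.0257 without *Stat5a* WT replicate 2 at 4 hr), −1.25 ± 0.09 at 24 hr (adjusted p = 2.12e-14), and −1.46 ± 0.09 at 48 hr (adjusted p = 1.29e-16). *Stat5a* line WT cells fell by 1.22 ± 0.09 at 24 hr and by 1.38 ± 0.09 at 48 hr on the log2 scale. Their 4 hr value of −0.18 ± 0.09 did not pass (adjusted p = 0.0906), but without replicate 2 it did (−0.30, adjusted p = 0.00379), so that 8 of 8 members then passed at 4 hr in place of 7.

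*Gimap8*, which encodes the largest GIMAP protein with several GTPase domains in a row, rose at 4 hr by a log2 fold change of 1.21 ± 0.12 in *Stat5a* line WT cells (called, and 1.215 without replicate 2) and 0.90 ± 0.12 in *Stat5b* line WT cells. In the *Stat5b* line it went from 49.0, 43.9, and 49.5 RPKM to 103, 102, and 94.9 RPKM at 4 hr and was back at 47.5, 51.2, and 46.7 RPKM at 48 hr, overlapping the range of 0 hr. Its 24 hr value there (0.255 ± 0.12, adjusted p = 0.0548) passed in 32 of the 47 fits that left out 1 library. *Gimap5*, the survival factor of lysosomal membranes, went from 37.5, 41.7, and 42.3 RPKM to 76.2, 81.8, and 75.1 RPKM at 4 hr and to 41.3, 43.0, and 38.9 RPKM at 48 hr in the same cells. Its log2 fold change at 4 hr was 0.77 ± 0.12 (adjusted p = 1.63e-06), and its 48 hr value of −0.15 ± 0.12 did not pass. *Gimap1*, the Golgi member needed for mature lymphocytes, passed at all 3 times in both lines, with log2 fold changes of 0.24 to 0.76. *Gimap9* passed at 4 and 24 hr in both lines and at 48 hr in the *Stat5b* line (0.31 ± 0.09, adjusted p = 0.00162), whereas the *Stat5a* line stood at 0.01 ± 0.09 at 48 hr.

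**Figure D2:**
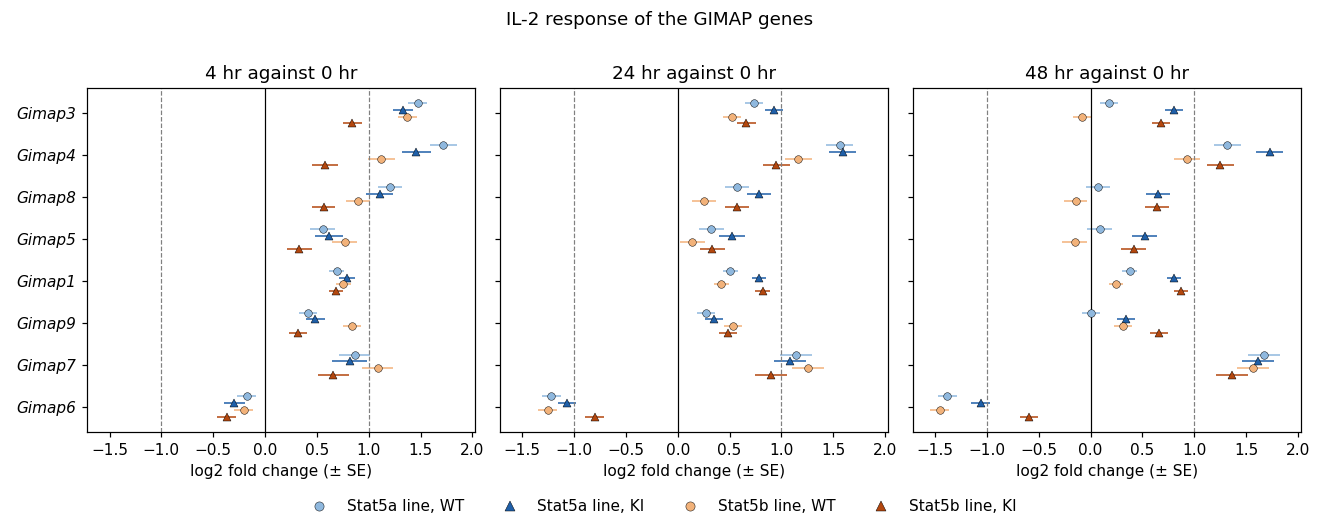
Log2 fold change (horizontal axis, ± SE from edgeR) of each GIMAP gene against 0 hr at 4, 24, and 48 hr, for WT (circles) and KI (triangles) cells of both lines, with dashed lines at 2-fold. *Gimap6* alone lies on the lower side at every time, and at 48 hr the WT values of *Gimap3*, *Gimap8*, and *Gimap5* lie between −0.15 and 0.17 while the KI values lie between 0.42 and 0.80.

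The steps between successive times in WT cells show where the peak ended. From 4 to 24 hr, 6 of 8 members passed as lower in the *Stat5b* line, where 25.7% of all genes did, and 4 of 8 in the *Stat5a* line, where 28.9% did. *Gimap3* fell by 0.85 ± 0.09 on the log2 scale in the *Stat5b* line and by 0.74 ± 0.09 in the *Stat5a* line. *Gimap6* fell by 1.05 ± 0.09 in both, the only 2-fold calls among the steps, and without the 4 hr replicate 2 of the *Stat5a* line its fall there was under 2-fold (−0.92). Without that library 6 of 8 members passed in the *Stat5a* line as well, *Gimap5* (−0.45, adjusted p = 9.47e-05) and *Gimap9* (−0.23, adjusted p = 0.0205) being gained. From 24 to 48 hr, 4 of 8 members passed as lower in the *Stat5b* line, where 18.4% of genes did, and 3 of 8 in the *Stat5a* line, where 19.9% did. *Gimap3* fell again, by 0.60 ± 0.09 and 0.56 ± 0.09. *Gimap7* was higher by 0.54 ± 0.15 in the *Stat5a* line (adjusted p = 0.00370) and at 0.31 ± 0.15 in the *Stat5b* line (adjusted p = 0.0926). Without replicate 2 of *Stat5a* WT at 4 hr the counts from 24 to 48 hr were 7 of 8 (*Stat5b* line, with *Gimap4*, *Gimap5*, and *Gimap6* added at −0.23, −0.29, and −0.20) and 5 of 8 (*Stat5a* line, with *Gimap4* and *Gimap5* added at −0.245 and −0.23). *Gimap5* in the *Stat5b* line also passed without replicate 1 of *Stat5a* WT at 0 hr or replicate 3 at 4 hr, and *Gimap7* there passed as higher in 3 of the 47 fits. Of the small steps, those of *Gimap1* (−0.18) and *Gimap9* (−0.22) from 24 to 48 hr in the *Stat5b* line were lost in 30 and 27 of the 47 fits that left out 1 library. *Gimap8* lost its step there (−0.40) without WT replicate 1 at 24 hr (−0.32, adjusted p = 0.0549), *Gimap9* its step in the *Stat5a* line (−0.27) without WT replicate 1 at 24 hr (−0.21, adjusted p = 0.0792), and *Gimap1* its 4 to 24 hr step there (−0.18, but 0.04 by limma on log2(RPKM + 1), which turns its direction) without WT replicate 3 at 4 hr (−0.13, adjusted p = 0.133) or replicate 1 or 2 at 24 hr (−0.17, adjusted p = 0.0619; −0.16, adjusted p = 0.0851).

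In KI cells of both lines all 8 members also changed over culture with IL-2. All 48 values passed the test, beside 53% of the values of all genes, with 42 higher and 6 lower, the 6 being *Gimap6*. *Stat5a* KI cells had 3 of 8 members called at 4, 24, and 48 hr, beside 17.8%, 21.1%, and 26% of all genes. *Stat5b* KI cells had 0 of 8 called by edgeR at 4 hr, beside 13.8% of all genes, and 0 of 8 at 24 hr, beside 15.8%, although all 8 had an unadjusted p under 0.05 at both times, and DESeq2 likewise called 0 of 8. Limma on log2(RPKM + 1) called *Gimap3* at 4 hr (1.06) and *Gimap4* (1.10) and *Gimap7* (1.02) at 24 hr, and over all 48 values it gave 17 2-fold calls in place of 11. The 0 at 24 hr depended on the libraries used, since *Gimap4* (0.95 ± 0.13) was called in 28 of the 47 fits that left out 1 library and *Gimap7* (0.90 ± 0.15) in 2. At 48 hr they had 2 of 8 called, *Gimap4* and *Gimap7*, beside 18.8%. In *Stat5b* KI cells *Gimap3* rose from 154.7, 138.97, and 155.9 RPKM to 333, 298, and 311 RPKM at 4 hr and then held at 289, 263, and 272 RPKM at 48 hr. All IL-2 libraries lay above those of 0 hr, and the 48 hr libraries lay above the 191 to 207 RPKM of WT cells. Its log2 fold changes were 0.84 ± 0.09 at 4 hr, 0.66 ± 0.09 at 24 hr, and 0.68 ± 0.09 at 48 hr. *Gimap6* fell in *Stat5b* KI cells from 319, 271, and 327 RPKM to 237, 221, and 235 RPKM at 48 hr, a log2 fold change of −0.59 ± 0.09 against −1.46 in WT cells. In *Stat5a* KI cells *Gimap6* was at 183, 169, and 159 RPKM at 48 hr, with a log2 fold change of −1.06 ± 0.09. This 2-fold call was lost without KI replicate 3 at 48 hr (−0.98, adjusted p = 2.07e-09). WT cells of that line fell by −1.41 to −1.30 over the fits that left out 1 library. The difference of the 2 responses in that line (0.32) did not pass, but did so in 4 of the 47 fits. The 2-fold call of *Gimap8* at 4 hr in *Stat5a* KI cells (1.10 ± 0.13) was lost without KI replicate 2 at 4 hr (0.85, adjusted p = 1.36e-05), which leaves 1 library in that group.

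KI cells were then set against WT cells of the same line at each time. At 4 hr all 8 members were lower in *Stat5b* KI cells, and by 48 hr most were higher. Over the 8 comparisons (2 lines at 4 times) 0 of the 64 values of the members reached a 2-fold call by edgeR, beside 10.3% of the values of all genes. DESeq2 also gave 0, and 41 values had an unadjusted p under 0.05. Without the fold threshold 33 of 64 passed, 24 lower and 9 higher, beside 31.9% of the values of all genes in either direction. Limma on log2(RPKM + 1) gave 20 of 64, with 6 of 8 in the *Stat5b* line at 4 hr, 0 at 0 hr, 1 at 24 hr, and 6 at 48 hr where edgeR gave 8, 4, 4, and 5, and in the *Stat5a* line 1, 1, 1, and 4 where edgeR gave 4, 2, 2, and 4. The KI and WT comparisons of a line at different times share no library.

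Before IL-2, 4 of 8 members passed as lower in *Stat5b* KI cells, where 9.26% of all genes were lower, and 2 of 8 in *Stat5a* KI cells, where 0.88% were. *Gimap3* was at 154.7, 138.97, and 155.9 RPKM in *Stat5b* KI cells against 162, 193, and 201 RPKM in WT cells, with a log2 fold change of −0.37 ± 0.09 (adjusted p = 0.00230). In the *Stat5a* line it was at 113.1, 112.4, and 117.02 RPKM against 130.05, 138.1, and 171.4 RPKM, a difference of −0.38 ± 0.09 (adjusted p = 0.0130). Of these WT libraries replicate 3 was the highest. That difference did not pass without WT replicate 3 (−0.28, adjusted p = 0.176) or KI replicate 1 (−0.365, adjusted p = 0.0877). *Gimap4* in the *Stat5a* line (−0.46 ± 0.13, adjusted p = 0.0376) did not pass without WT replicate 3 (−0.29, adjusted p = 0.396) or without KI replicate 1, 2, or 3 (adjusted p = 0.151, 0.0595, and 0.116). In the *Stat5b* line the other members that passed were *Gimap5* (−0.39 ± 0.12), *Gimap6* (−0.28 ± 0.09), and *Gimap1* (−0.21 ± 0.07). *Gimap5* did not pass without KI replicate 2 (−0.35, adjusted p = 0.0779), *Gimap6* without WT replicate 2 (−0.30, adjusted p = 0.0533) or KI replicate 2 (−0.20, adjusted p = 0.162), and *Gimap1* without WT replicate 2 or 3 or KI replicate 1 or 3 (adjusted p = 0.0524 to 0.0664).

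At 4 hr, 8 of 8 members passed as lower in *Stat5b* KI cells, where 12.8% of all genes did, and on the RPKM scale the KI and WT libraries overlapped for none of them, while 13.3% of all genes had every KI library below every WT library. *Gimap3* was at 333, 298, and 311 RPKM in KI cells against 536, 564, and 522 RPKM in WT cells. Every KI library lay at or below 333 RPKM and every WT library at or above 522 RPKM. The log2 fold change was −0.90 ± 0.09 (adjusted p = 1.22e-09). *Gimap5* was at 49.6, 46.0, and 46.5 RPKM in KI cells against 76.2, 81.8, and 75.1 RPKM in WT cells, a difference of −0.83 ± 0.12 (adjusted p = 2.72e-06) with a wide gap between the groups. *Gimap4* was at 285, 290, and 269 RPKM against 402, 441, and 425 RPKM, a difference of −0.70 ± 0.13 (adjusted p = 7.09e-05), again with the groups clear of each other. The other 5 members differed by −0.57 ± 0.12 (*Gimap8*), −0.53 ± 0.09 (*Gimap9*), −0.50 ± 0.15 (*Gimap7*), −0.45 ± 0.09 (*Gimap6*), and −0.28 ± 0.07 (*Gimap1*). Leaving out 1 library lost 2 of the 8 calls, that of *Gimap1* without KI replicate 2 (−0.21, adjusted p = 0.0530) and that of *Gimap7* without KI replicate 3 (−0.44, adjusted p = 0.0612).

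In the *Stat5a* line 4 of 8 members passed as lower at 4 hr, where 12.7% of all genes did, with 2 KI libraries. *Gimap4* was at 279 and 326 RPKM in KI cells against 348, 402, and 422 RPKM in WT cells, the only member whose libraries did not overlap, where 3.39% of all genes had every KI library below every WT library, with a log2 fold change of −0.72 ± 0.15 (adjusted p = 0.00104). *Gimap3* was at 320 and 350 RPKM against 409, 282, and 511 RPKM, so that the low WT value is that of replicate 2, and differed by −0.52 ± 0.10 (adjusted p = 5.59e-04). *Gimap7* (−0.47 ± 0.17) and *Gimap8* (−0.38 ± 0.13) also passed. Without WT replicate 2, 4 of 8 passed, *Gimap3* (−0.53), *Gimap4* (−0.42), *Gimap7* (−0.54), and in place of *Gimap8* (−0.39, adjusted p = 0.0631) *Gimap5* (−0.47, adjusted p = 0.00269). Without KI replicate 1, which leaves 1 KI library assumed to vary like the other groups, none of the 4 passed (adjusted p = 0.0930 for *Gimap3*, 0.104 for *Gimap4*, 0.155 for *Gimap7*, and 0.592 for *Gimap8*). *Gimap7* also did not pass without WT replicate 3 (adjusted p = 0.231) or KI replicate 2 (adjusted p = 0.237). *Gimap6* (−0.25 ± 0.10, adjusted p = 0.0690) did not pass but did so in 15 of the 47 fits that left out 1 library.

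At 24 hr the differences were small. In *Stat5b* KI cells 3 of 8 members were lower, where 26.3% of all genes were, namely *Gimap7* (−0.43 ± 0.15), *Gimap4* (−0.37 ± 0.13), and *Gimap3* (−0.23 ± 0.09), and *Gimap1* was higher (0.19 ± 0.07). In *Stat5a* KI cells 2 of 8 were lower, where 9.01% of all genes were, namely *Gimap7* (−0.48 ± 0.15) and *Gimap4* (−0.43 ± 0.13). *Gimap4* was at 369, 344, and 326 RPKM in *Stat5b* KI cells against 452, 424, and 438 RPKM in WT cells. Each of these 6 calls was lost without 1 library or another. The *Gimap7* calls were lost without KI replicate 3 in the *Stat5b* line (adjusted p = 0.0590) and without WT replicate 3 or KI replicate 2 or 3 in the *Stat5a* line (adjusted p = 0.195, 0.0864, and 0.0791). The *Gimap4* calls were lost without WT replicate 1 or KI replicate 3 in the *Stat5b* line (adjusted p = 0.0582 and 0.0791) and without WT replicate 3 or KI replicate 2 in the *Stat5a* line (adjusted p = 0.0536 and 0.0811). In the *Stat5b* line *Gimap3* was lost without WT replicate 1 or 2 or KI replicate 1 or 2 (adjusted p = 0.0687 to 0.0979), and *Gimap1* without WT replicate 1 or KI replicate 3 (adjusted p = 0.0888 and 0.116).

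At 48 hr the direction had turned. In *Stat5b* KI cells 5 of 8 members passed as higher, where 33.1% of all genes did, and 0 as lower. *Gimap6* was at 237, 221, and 235 RPKM in KI cells against 147.1, 151.4, and 141.6 RPKM in WT cells, with a wide gap and a log2 fold change of 0.58 ± 0.09 (adjusted p = 9.08e-07). *Gimap8* was at 74.6, 69.1, and 81.0 RPKM against 47.5, 51.2, and 46.7 RPKM, a difference of 0.55 ± 0.12 (adjusted p = 8.47e-05). *Gimap3* was at 289, 263, and 272 RPKM against 195, 207, and 191 RPKM, a difference of 0.40 ± 0.09 (adjusted p = 1.82e-04). For each of the 3 genes every KI library lay above every WT library, as it did for 43.4% of all genes. *Gimap1* (0.42 ± 0.07, adjusted p = 2.68e-06) and *Gimap9* (0.34 ± 0.09, adjusted p = 7.37e-04) also passed. *Gimap5* (0.18 ± 0.12) and *Gimap4* (0.17 ± 0.13) did not, although their KI libraries too lay above the WT libraries in RPKM. *Gimap7* was at 67.5, 67.4, and 58.0 RPKM against 72.7, 78.3, and 70.3 RPKM, a difference of −0.28 ± 0.15 that did not pass (adjusted p = 0.1001). It passed as lower in 6 of the 47 fits that left out 1 library (−0.32, adjusted p = 0.0287 at the lowest).

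In *Stat5a* KI cells at 48 hr 3 of 8 members passed as higher, where 21.5% of all genes did, and 1 as lower. *Gimap1* was at 84.5, 79.7, and 76.1 RPKM in KI cells against 60.5, 62.5, and 67.2 RPKM in WT cells, with a difference of 0.29 ± 0.07 (adjusted p = 0.00101). *Gimap8* (0.31 ± 0.12, adjusted p = 0.0289) and *Gimap3* (0.25 ± 0.09, adjusted p = 0.0192) passed, but in 28 and 26 of the 47 fits that left out 1 library they did not, with values down to 0.22 and 0.16. *Gimap7* was the lower one (−0.49 ± 0.15, adjusted p = 0.00743), at 55.4, 41.1, and 41.8 RPKM against 50.4, 61.3, and 74.8 RPKM. Its groups overlapped in RPKM, and the difference did not pass without WT replicate 3, the highest (−0.38, adjusted p = 0.0563).

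**Figure D3:**
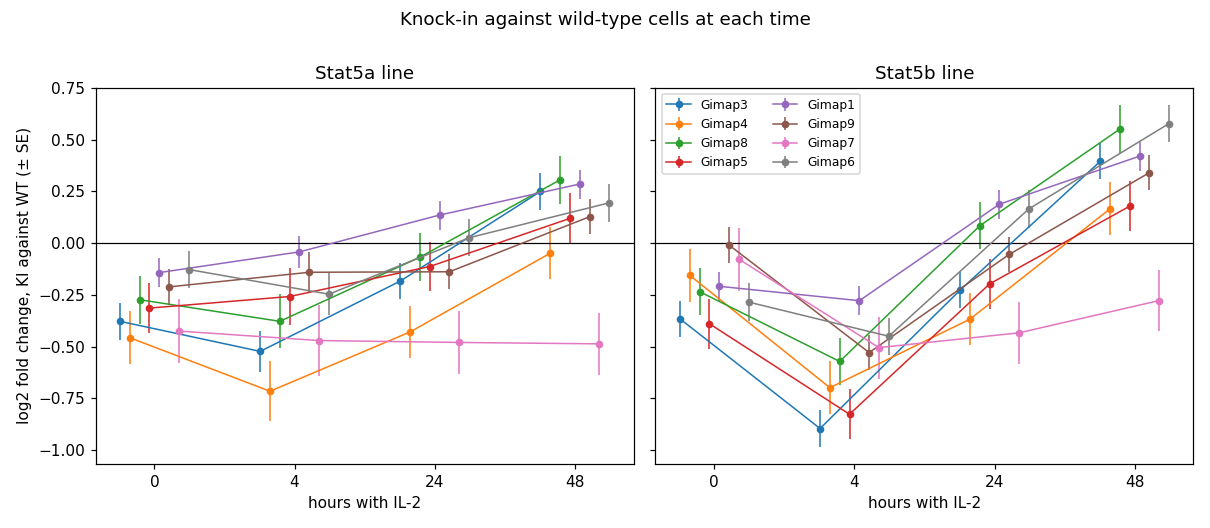
Log2 fold change of KI against WT cells (vertical axis, ± SE from edgeR) of the 8 GIMAP genes at 0, 4, 24, and 48 hr (drawn at equal spacing) in each line. In the *Stat5b* line all 8 lie below 0 at 4 hr and 7 lie above 0 at 48 hr, *Gimap7* being the one that does not.

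Whether the IL-2 response itself differed between KI and WT cells was tested as the difference of the 2 responses within a line. The values of a line at 4, 24, and 48 hr share its 0 hr libraries, so a KI difference at 0 hr enters all of them. *Gimap5* in the *Stat5b* line, for example, differed between KI and WT cells by −0.39 at 0 hr and by 0.18, which did not pass, at 48 hr. In the *Stat5b* line at 4 hr the response was smaller in KI cells for 2 of 8 members, where 1.45% of all genes passed as lower, *Gimap3* (−0.53 ± 0.12, adjusted p = 0.0118) and *Gimap9* (−0.52 ± 0.12, adjusted p = 0.0116). *Gimap4* had a value of the same size (−0.54 ± 0.18) that did not pass (adjusted p = 0.134). Without replicate 2 of *Stat5a* WT at 4 hr it passed (adjusted p = 0.00908), as did *Gimap5* (−0.44, adjusted p = 0.0263), which makes 4 of 8. Limma on log2(RPKM + 1) or log2(RPKM + 0.1) passed 0 of 8 at 4 hr, so both calls were lost there. It passed 1 at 24 hr and 5 at 48 hr in this line. The calls of *Gimap3* and *Gimap9* also depended on single libraries: *Gimap3* did not pass without WT replicate 1 or KI replicate 3 at 0 hr (adjusted p = 0.136 and 0.101) or WT replicate 1 or KI replicate 2 at 4 hr (adjusted p = 0.0544 and 0.112). *Gimap9* did not pass without WT replicate 2 or 3 or KI replicate 2 at 0 hr (adjusted p = 0.0731, 0.0646, and 0.0964) or KI replicate 1 or 3 at 4 hr (adjusted p = 0.0682 and 0.0509). At 24 hr the response lay higher in *Stat5b* KI cells for 2 of 8 members, where 14.2% of genes passed as higher, *Gimap6* (0.45 ± 0.13, adjusted p = 0.00518) and *Gimap1* (0.40 ± 0.10, adjusted p = 0.00165). At 48 hr it lay higher for 6 of 8, where 23.8% of genes did. *Gimap6* had the largest value of the 8 (0.86 ± 0.13, adjusted p = 5.53e-07), which for this gene is a smaller fall. *Gimap8* (0.79 ± 0.16, adjusted p = 1.13e-04), *Gimap3* (0.76 ± 0.12, adjusted p = 3.09e-06), *Gimap1* (0.63 ± 0.10, adjusted p = 1.76e-06), and *Gimap5* (0.57 ± 0.17, adjusted p = 0.00557) followed. *Gimap9* (0.35 ± 0.12, adjusted p = 0.0156) did not pass without WT replicate 1, KI replicate 1, or KI replicate 3 at 0 hr or WT replicate 3 at 48 hr (adjusted p = 0.0534 to 0.0757). *Gimap4* (0.32 ± 0.18) and *Gimap7* (−0.20 ± 0.21) did not pass, but without WT replicate 2 of the *Stat5a* line at 4 hr *Gimap4* did (0.32, adjusted p = 0.0335), which makes 7 of 8.

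In the *Stat5a* line 0 of 8 members passed at 4 hr by edgeR, where 0.957% of genes passed as lower, with 0 at an unadjusted p under 0.05 and 0 by DESeq2, and 0 of 8 also passed without WT replicate 2 at 4 hr. At 24 hr 0 of 8 passed, where 1.81% of genes passed as higher, with 1 at an unadjusted p under 0.05 (*Gimap1*, chosen for mention after its value was seen) and 0 by DESeq2. *Gimap1* (0.28 ± 0.10, adjusted p = 0.106) passed without WT replicate 1 at 0 hr (0.36, adjusted p = 0.0245) or WT replicate 2 at 4 hr (0.28, adjusted p = 0.050). At 48 hr the response lay higher in *Stat5a* KI cells for 4 of 8 members, where 11.8% of genes did, namely *Gimap3* (0.63 ± 0.12, adjusted p = 2.14e-04), *Gimap8* (0.58 ± 0.16, adjusted p = 0.00692), *Gimap1* (0.43 ± 0.10, adjusted p = 0.00126), and *Gimap9* (0.34 ± 0.12, adjusted p = 0.0330). *Gimap8* did not pass without WT replicate 3 at 0 hr (0.35, adjusted p = 0.0929), and *Gimap9* did not in 20 of the 47 fits that left out 1 library (0.28 at the lowest). Without WT replicate 2 at 4 hr the count was 7 of 8, with *Gimap4* (0.41, adjusted p = 0.012), *Gimap5* (0.44, adjusted p = 0.00397), and *Gimap6* (0.32, adjusted p = 0.0208) added. *Gimap4* also passed without WT replicate 1 at 0 hr, and *Gimap5* and *Gimap6* in 4 fits each in all.

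The KI effects of the lines were compared directly. At 4 hr 2 of 8 members had a KI effect that lay lower in the *Stat5b* line, *Gimap5* (−0.57 ± 0.18, adjusted p = 0.0384) and *Gimap9* (−0.39 ± 0.13, adjusted p = 0.0447), where 10.9% of genes differed in either direction. These calls were lost in 31 and 32 of the 47 fits that left out 1 library, and without WT replicate 2 of the *Stat5a* line at 4 hr the values were −0.35 (adjusted p = 0.126) and −0.29 (adjusted p = 0.166). At 48 hr *Gimap6* alone differed (0.38 ± 0.13, adjusted p = 0.0458), higher in the *Stat5b* line, where 11% of genes differed, and this call was lost in 35 of the 47 fits, with values of 0.35 to 0.42. At 0 hr 0 of 8 members differed by edgeR, where 0.193% of genes did, with 0 at an unadjusted p under 0.05 and 0 by DESeq2. At 24 hr 0 of 8 differed, where 14.1% of genes did, again with 0 at an unadjusted p under 0.05 and 0 by DESeq2. For the other members at 4 and 48 hr a difference between the lines was not detected, which does not show that the lines act alike: the SEs of these differences were 0.10 to 0.23.

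WT cells of the lines were also compared. At 0 hr 1 of 8 members differed, where 2.09% of genes did, *Gimap9*, lower in the *Stat5b* line at 41.1, 37.1, and 37.7 RPKM against 47.9, 48.9, and 42.6 RPKM (−0.31 ± 0.09, adjusted p = 0.0448). The call was lost in 11 of the 47 fits that left out 1 library. Other members passed as higher in the *Stat5b* line once a library was left out: *Gimap1* (0.255), *Gimap3* (0.40), *Gimap4* (0.56), and *Gimap8* (0.51) without *Stat5a* WT replicate 3 at 0 hr, *Gimap3* (0.29) and *Gimap4* (0.39) without *Stat5a* WT replicate 2 at 4 hr, *Gimap4* (0.385) without *Stat5a* WT replicate 1 at 4 hr, and *Gimap3* (0.36) without *Stat5b* WT replicate 1 at 0 hr. At 4 hr 3 of 8 were higher in the *Stat5b* line, where 26.7% of genes differed, namely *Gimap5* (0.47 ± 0.12), *Gimap7* (0.57 ± 0.15), and *Gimap1* (0.21 ± 0.07). By limma on log2(RPKM + 1) or log2(RPKM + 0.1), 6 of 8 passed at 4 hr. Without WT replicate 2 of the *Stat5a* line none of the 3 passed (0.25, adjusted p = 0.170; 0.50, adjusted p = 0.121; 0.17, adjusted p = 0.231). *Gimap7* also did not pass without WT replicate 1 of that group (0.36, adjusted p = 0.0628), where *Gimap4* passed as lower (−0.44, adjusted p = 0.0059), and *Gimap1* did not pass in 30 of the 47 fits. At 24 hr 0 of 8 differed by edgeR, where 0.0321% of genes did, with 1 at an unadjusted p under 0.05 (*Gimap7*, 0.46 ± 0.15) and 0 by DESeq2, and *Gimap7* passed without *Stat5a* WT replicate 3 at 24 hr (0.685, adjusted p = 0.020). At 48 hr 0 of 8 differed, where 0% of genes did, with 0 at an unadjusted p under 0.05 and 0 by DESeq2.

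The members fell into profiles that resemble each other to different degrees over the 16 group means of log2 CPM (counts scaled to library size). These correlations describe 16 groups that share a time course, and carry no test. *Gimap3* and *Gimap8*, at opposite ends of the cluster, were the closest pair (Pearson's r = 0.98), and *Gimap3* and *Gimap5* followed at 0.93. *Gimap3* and *Gimap5* share 190 words of 50 bases, the length of a read, in their longest transcripts, which are 9.1% and 10.0% of each, and no other member shares any with another. A read from such a word maps to both genes, and only uniquely mapped reads were kept. *Gimap4* and *Gimap7* had an r of 0.85. *Gimap6* was opposite in sign to *Gimap7* (r = −0.70) and *Gimap4* (r = −0.60) and near 0 with *Gimap3*, *Gimap8*, and *Gimap5* (0.03 to 0.05). Outside the family, the genes most like *Gimap3* were *Snapin*, *Gpr146*, and *Cyld* (r = 0.96, 0.95, and 0.95), and those most like *Gimap8* were *Cyld*, *Snapin*, and *Kdsr* (0.97, 0.95, and 0.95). *Ms4a4b*, a T cell membrane protein, was most like *Gimap4* (0.98), ahead of *Zscan12* (0.97) and *BC030336* (0.96). *Prkx*, *Arap2*, and *Syf2* were most like *Gimap6* (0.97, 0.96, and 0.96), and *Fam57a*, *Foxd2os*, and *Cxcr3*, the chemokine receptor of activated CD8 T cells, were most like *Gimap7* (0.95, 0.95, and 0.94). For *Gimap1* they were *Iqcc*, *Atad3aos*, and *Zfp866* (0.97 or 0.98), for *Gimap5* *Fam102a*, *Gm4980*, and *Zdhhc18* (0.91 or 0.92), and for *Gimap9* *Zfp748*, *Ltb*, and *Slfn2* (0.91).

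**Figure D4:**
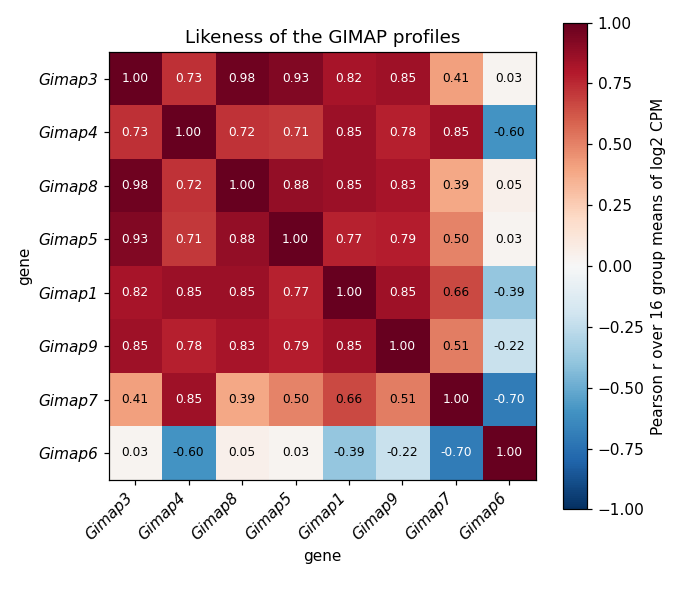
Pearson's r between GIMAP genes over the 16 group means of log2 CPM (color scale from −1 to 1, value printed in each cell). *Gimap3*, *Gimap8*, and *Gimap5* form a block with r of 0.88 to 0.98, and *Gimap6* is the row with negative or near-zero values.

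The genes next to the cluster moved in both directions. Counts for this list and those below were not tested against all genes. Shares of all genes stand above beside the GIMAP counts, some of them only as a value over several comparisons. Of the 5 genes on each side (*Rarres2*, *Gm5111*, *Repin1*, *Zfp775*, and *AI854703* before it, *Tmem176b*, *Tmem176a*, *Aoc1*, *Doxl2*, and *Svs1* after it), 6 passed the filter on low counts. At 4 hr in *Stat5b* line WT cells their median log2 fold change was −0.63, beside 0.87 for the 8 GIMAP genes, among which *Gimap6* stood at −0.20. *Zfp775* rose by 0.55 ± 0.13 and *Repin1* stood at 0.08 ± 0.17, whereas *Tmem176a*, a membrane protein gene of myeloid cells, fell by 0.97 ± 0.25 and *Rarres2* stood at −2.16 ± 1.29. In *Stat5b* KI against WT cells at 4 hr 3 of the 6 were higher and 1 lower at 2-fold. *Rarres2* (3.52 ± 1.13) and *Tmem176a* (1.29 ± 0.25) led, *AI854703* was lower (−1.08 ± 0.29), and *Zfp775* stood at −0.04 ± 0.13. Over the 8 comparisons of KI with WT cells, 10.3% of the values of all genes were called at 2-fold in either direction. The 2-fold share for this comparison alone is not given here. The noncoding and readthrough genes that overlap GIMAP exons cannot be told apart from them where the use of strand in counting is not given.

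Genes tied to GIMAP proteins in autophagy, cell death, and GSK3 signaling (14 genes) changed in both directions. *Bcl2*, the survival factor, rose by a log2 fold change of 1.94 ± 0.11 at 4 hr in *Stat5b* line WT cells, the most of the list, ahead of *Ctnnb1* (β-catenin, 1.70 ± 0.09). *Map1lc3a* (−0.83 ± 0.17) and *Map1lc3b* (−0.61 ± 0.05), which encode ATG8 proteins of autophagosomes, were the lowest, and at 48 hr they were at −3.55 ± 0.20 and −1.65 ± 0.05. In all, 5 of the 14 passed as higher and 5 as lower at 4 hr, with a median of 0.14 beside −0.03 over all genes. Over the 6 IL-2 responses of WT cells, 61.4% of the values of all genes passed in either direction. The share at 4 hr in this line alone is not given here. In *Stat5b* KI against WT cells at 4 hr *Bcl2* was lowest of the list (−1.72 ± 0.11, adjusted p = 7.18e-14), and 1 passed as higher and 3 as lower. At 48 hr in *Stat5b* KI cells *Bcl2l1* (BCL-XL) was at −1.66 ± 0.12 and *Gabarapl1* at −1.33 ± 0.16 against WT cells, and *Map1lc3a* (1.16 ± 0.20) and *Map1lc3b* (0.61 ± 0.05) were the highest.

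Genes of T cell quiescence and homing (20 genes) changed in both directions at 4 hr and mostly fell by 48 hr in WT cells. At 4 hr 8 of 20 passed as higher and 10 as lower in *Stat5a* line WT cells, and 6 and 9 in *Stat5b* line WT cells, with medians of −0.11 and −0.002. In *Stat5b* KI cells 7 passed as higher and 7 as lower at 24 hr, and 4 and 8 at 48 hr. At 48 hr 19 of 20 passed as lower in WT cells of each line, with a median log2 fold change of −1.18 (*Stat5a* line) and −1.40 (*Stat5b* line), beside −0.12 and −0.13 over all genes. The share of all genes that passed as lower there is not given here. *Tsc22d3* (−3.66 ± 0.20), a gene of glucocorticoid and FOXO signaling, and *Btg1* (−3.20 ± 0.11), an antiproliferative gene, fell the most in the *Stat5b* line, and *Slfn2* was the 1 that rose (0.68 ± 0.14). In *Stat5b* KI against WT cells 0 passed as higher and 13 as lower at 0 hr, with a median of −0.34. At 4 hr 0 passed as higher and 7 as lower (median −0.22), and at 24 hr 14 and 1 (median 0.42). At 48 hr 19 of 20 passed as higher, 8 of them at 2-fold, with a median of 0.91 beside 0.10 over all genes. *Il7r*, the IL-7 receptor, was highest (2.05 ± 0.18), ahead of *Btg2* (1.61 ± 0.14), and *Dapl1* was at −0.13 ± 0.20. *Stat5a* KI cells had 18 of 20 higher at 48 hr with a median of 0.66, led by *Btg2* (1.13 ± 0.14). At 0, 4, and 24 hr 0, 1, and 7 passed as higher and 3, 4, and 0 as lower in that line. The shares of all genes higher in KI cells at 0, 4, and 24 hr are not given for either line.

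Other large GTPases and septins (25 genes) also changed over culture with IL-2. At 48 hr 13 of 25 were called higher and 1 lower in *Stat5a* line WT cells, and 12 higher and 2 lower in *Stat5b* line WT cells. Medians were 1.23 and 0.91, beside −0.12 and −0.13 over all genes. The shares of all genes called at 48 hr are given above with the GIMAP genes. The interferon-inducible *Iigp1* (4.00 ± 0.43) and *Irgm2* (3.38 ± 0.18) led in the *Stat5b* line, and the antiviral *Mx2* (−2.07 ± 0.41) and *Mx1* (−1.003 ± 0.285) were lowest. In *Stat5b* KI against WT cells at 4 hr *Mx2* (1.51 ± 0.44) and *Mx1* (1.06 ± 0.30) were highest and *Igtp* (−0.96 ± 0.18) and *Sept9* (−0.69 ± 0.09) lowest. There 2 of 25 passed as higher and 5 as lower, with a median of −0.15 beside −0.03 over all genes. The share of all genes that passed as lower is given above with the GIMAP genes. At 24 hr 19 of 25 were lower and 1 higher, with a median of −0.84. At 48 hr *Sept11* was the 1 called at 2-fold (−1.51 ± 0.09).

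Markers of other cells moved with genotype and time, and their part in the GIMAP results was not tested. The gene named for each list is its most abundant over all libraries, which need not lead in every group. B cell markers (7 of the 8 listed were used), with *Cd74*, summed to 651 to 913 RPKM in *Stat5b* line WT cells and to 1759 to 2188 RPKM in KI cells at 0 hr. At 48 hr they summed to 42.7 to 57.9 RPKM and 407 to 440 RPKM. All 7 passed as higher in *Stat5b* KI cells at each of the 4 times, and in *Stat5a* KI cells 2, 4, 7, and 7 of 7 did at 0, 4, 24, and 48 hr. For these and the other markers, shares of all genes higher in KI cells stand above for 48 hr and are not given for the earlier times. Myeloid markers, with *Lyz2*, summed to 31.0 to 38.3 RPKM in *Stat5b* line WT and to 131.5 RPKM on average (at most 162 RPKM) in KI cells at 0 hr, and to 3.47 to 4.67 RPKM and 53.1 to 83.2 RPKM at 48 hr, with 7, 7, 8, and 8 of 8 passing as higher in KI cells at the 4 times. Erythroid markers, with *Hbb-bs*, summed to 27.4 to 85.1 RPKM and 286 to 707 RPKM at 0 hr and to 3.32 to 6.03 RPKM and 81.8 to 155 RPKM at 48 hr, with 5 of 5 passing as higher at each time and 1 marker at 0 in every *Stat5b* line WT library at 48 hr. CD4 T cell markers, with *Cd4*, summed to 10.6 to 13.6 RPKM and 21.7 to 29.7 RPKM at 0 hr and to 3.40 to 4.01 RPKM and 17.2 to 17.7 RPKM at 48 hr, with 3, 3, 4, and 4 of 4 passing as higher. NK cell markers, with *Tyrobp*, summed to 70.8 to 85.9 RPKM and 103.7 to 147.7 RPKM at 0 hr and to 107.96 to 114.4 RPKM and 75.9 to 99.6 RPKM at 48 hr, and of the 6, 3 passed as higher and 3 as lower in KI cells at 48 hr. *Tyrobp* itself averaged 7.81 RPKM in WT and 34.7 RPKM in KI cells at 48 hr. The defining B cell, myeloid, CD4, and NK markers were not at 0 in any group.

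Markers of the CD8 T cells themselves also moved. Those of CD8 T cell identity (7 of the 8 listed were used), with *Cd8b1*, summed to 1590 to 1768 RPKM in *Stat5b* line WT and 1317 to 1388 RPKM in KI cells at 0 hr, where 7 of 7 passed as lower in KI cells. At 48 hr they summed to 1473 to 1516 RPKM and 1953 to 2185 RPKM, with 5 of 7 higher in KI cells. The summed GIMAP level in the *Stat5b* line was 739 to 833 RPKM in KI against 860 to 949 RPKM in WT cells at 0 hr and 1274 to 1329 RPKM against 974 to 1036 RPKM at 48 hr, the same directions as the CD8 T cell sum. At 4 hr both sums were lower in KI cells, at 1336 RPKM against 1469 RPKM for the CD8 T cell sum (3 of 7 markers passing as lower) and 1174 against 1713 RPKM for the GIMAP sum (means of 3 libraries). At 24 hr the directions were opposite, at 1893 RPKM in KI against 1760 RPKM in WT cells and 1114 against 1223 RPKM. In the *Stat5a* line both means were lower in KI cells at 0 hr and higher at 48 hr, and they were opposite at 24 hr (2006 against 1688 RPKM for the CD8 T cell sum, 1023 against 1133 RPKM for the GIMAP sum). At 4 hr in that line the CD8 T cell sum was 1216 and 1348 RPKM in KI cells against 735, 1179, and 1300 RPKM in WT cells, which overlapped, the lowest being replicate 2, and the GIMAP sum was 1158 and 1285 RPKM against 1101, 1336, and 1648 RPKM. Memory-phenotype markers, with *Ccl5*, summed to 882 to 1278 RPKM in WT and 605 to 729 RPKM in KI cells at 0 hr, and to 1184 to 1203 RPKM and 651 to 840 RPKM at 48 hr, with 4 of 6 passing as lower in KI cells at both times and 1 as higher at 48 hr. *Ccl5* itself averaged 633 RPKM in WT and 398 RPKM in KI cells at 0 hr, and 116.5 RPKM and 277 RPKM at 48 hr. Cell cycle markers, with *Pcna*, summed to 192 to 198 RPKM in WT and 233 to 277 RPKM in KI cells at 0 hr and to 1232 to 1298 RPKM and 385 to 560 RPKM at 48 hr, with 8 of 8 lower in *Stat5b* KI cells at 24 and 48 hr. The share of all genes lower in KI cells at 48 hr is not given here.

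**Figure D5:**
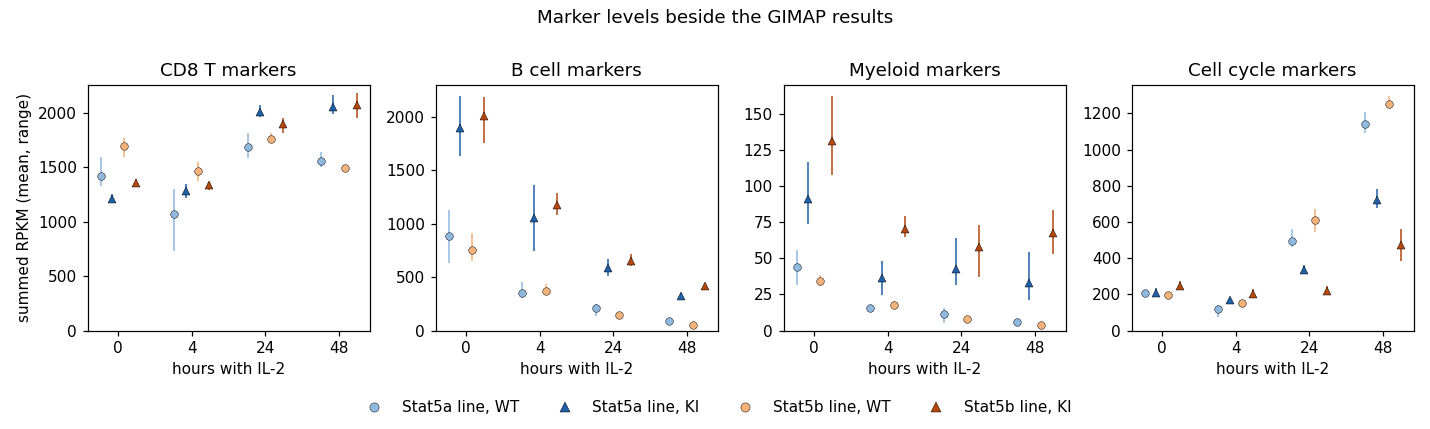
Summed RPKM of marker genes (points are group means of 2 or 3 libraries, bars run from the lowest to the highest library) for CD8 T cells, B cells, myeloid cells, and the cell cycle, against hours with IL-2 drawn at equal spacing. B cell and myeloid sums are higher in KI than in WT cells at every time, and cell cycle sums are highest at 48 hr and are lower in KI cells at 24 and 48 hr.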

How the data were processed

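RNA-seq libraries of 50-base reads were made by the authors from CD8+ T cells, and per the submitters' processing notes reads were mapped to mm10 (GRCm38) with TopHat2 2.0.11 and Bowtie2 2.2.6, with SAMtools 0.1.8, bedtools 2.25.0, and edgeR also named. The authors kept uniquely mapped reads and deposited a read count and an RPKM value per RefSeq transcript and library. The counting program and its use of strand are not given in the sources used here. From the deposited counts the transcript with the most bases was kept per symbol, and 1 mean per group of line, genotype, and time was fitted to 47 libraries in edgeR 4.0.16 (R 4.3.3, limma 3.58.1) by the quasi-likelihood test after TMM scaling and filterByExpr (minimum count 10), with Benjamini-Hochberg adjustment over 15566 genes. Levels are the deposited RPKM values. On simulated counts for *Stat5b* line WT cells at 48 against 0 hr (14583 genes), 180 of 200 changed genes were recovered with 2 false calls. All planted changes were above 2-fold and all genes had the same dispersion. Smaller changes and calls without the fold threshold were therefore not probed. A count of 3, the floor, was 0.0498 to 0.173 CPM, and covers counting error only. No 2 libraries of a group agreed within counting noise (chi-square per gene 4.83 to 220.6).

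Alternatives were DESeq2 1.42.0, limma on log2(RPKM + 1) or log2(RPKM + 0.1) for genes at 1 RPKM or more in at least 3 libraries, no filter on counts, the highest-count transcript, all 48 libraries, a fit to the compared groups alone, a replicate block, and each library left out. The labels give the same replicate numbers in each group without saying what they share. Over 24 comparisons of groups the same-numbered libraries' deviations correlated at −0.226 to 0.426 (median 0.0745), and all 3 pairs were above 0.1 in 2 of them, *Stat5a* line WT cells at 24 and at 48 against 0 hr. Genes named are the 8 members, for each member the 3 genes with the highest Pearson's r over 16 group means of log2 CPM (prior count 1), and the highest and lowest genes of each list. The members and the lists (partners in autophagy and cell death, quiescence, other GTPases, neighbours, and markers of CD8 T, CD4 T, B, myeloid, NK, and erythroid cells, memory phenotype, and cell cycle) were chosen with earlier results of these data known. Promoter sequences are from RefSeq (GRCm38.p6). Other assays of the series were not used here. Python 3.11.15 with pandas 2.3.3, numpy 2.4.6, and matplotlib 3.10.9 made the summaries and plots.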

Additional observations from a re-analysis of the deposited data

Results flagged for a closer look

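The results below are those in which an effect differed between groups by a test of the difference itself (edgeR, adjusted over all genes). Where the report names libraries on which a call depends, that holds here too. The differences of responses include the difference between KI and WT cells at 0 hr. The response to IL-2 at 48 hr was above that of WT cells in *Stat5a* KI cells for *Gimap3* (0.63), *Gimap8* (0.58), *Gimap1* (0.43), and *Gimap9* (0.34) on the log2 scale. In the *Stat5b* line the same difference at 48 hr was 0.86 for *Gimap6*, 0.79 for *Gimap8*, 0.76 for *Gimap3*, 0.63 for *Gimap1*, 0.57 for *Gimap5*, and 0.35 for *Gimap9*. At 24 hr in the *Stat5b* line it was 0.45 for *Gimap6* and 0.40 for *Gimap1*. At 4 hr in that line it had the opposite sign, −0.53 for *Gimap3* and −0.52 for *Gimap9*. Limma on log2(RPKM + 1) or log2(RPKM + 0.1) passed neither of these 4 hr differences. The effect of the KI allele differed between the lines at 4 hr by −0.57 for *Gimap5* and −0.39 for *Gimap9*, and at 48 hr by 0.38 for *Gimap6* (*Stat5b* minus *Stat5a* line). These 3 calls between lines did not hold in most of the fits that left out 1 library.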

How the results depend on the processing

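Of the 304 values of the members, 157 passed without the fold threshold. Under the alternatives these gave 8792 values, of which 8208 kept their direction and their side of the threshold (2-fold for the IL-2 responses, adjusted p alone for the rest), 495 fell short of it, 87 IL-2 responses came to reach 2-fold, and 2 turned. Those that did not pass gave 8232 values, of which 217 passed and 352, none of them passing, changed sign. The 2 that turned were the step of *Gimap1* from 4 to 24 hr in *Stat5a* line WT cells, −0.184 as reported and 0.0432 and 0.0445 by limma with a pseudocount of 1 and 0.1, and the cause was not tested. Without the fold threshold the counts rose by construction, from 17 to 37 (WT response), 2 to 18 (steps), 11 to 48 (KI response), 0 to 33 (KI against WT), 0 to 14 (difference of responses), 0 to 3 (difference of KI effects between lines), and 0 to 4 (WT cells of the lines). Of 2-fold calls, the steps gave 1 with no count filter and 1 with limma at either pseudocount, the KI response gave 17 and 18 with limma, and KI against WT gave 1 with all 48 libraries. Of calls without the fold threshold, all 48 libraries gave 8 steps, 14 KI against WT, 3 differences of responses, 0 differences between lines, and 0 in WT cells of the lines. Limma gave 20 KI against WT at either pseudocount, 10 differences of responses, 0 differences between lines, and 7 in WT cells of the lines. No count filter gave 0 and 2 of the last 2, the highest-count transcript 0 differences between lines, and only the groups compared 22 differences of responses and 0 in WT cells of the lines. Leaving out 1 library gave 2-fold counts of 17 to 19, 1 to 2, 10 to 13, and 0 to 0 for the remaining 4 kinds of comparison. Without the fold threshold it gave 36 to 40, 15 to 25, 46 to 48, 28 to 36, 12 to 21, 0 to 3, and 2 to 8. With the replicate block the 2-fold counts were 17, 2, 11, 0, 0, 0, and 0, and the counts without the fold threshold 40, 20, 48, 33, 16, 5, and 6. *Gimap7* had the fewest reads of the 8, 740 to 6506 a library, far above the floor of 3. Where all 3 pairs were above 0.1, the block changed no 2-fold call.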
